A study of Arabidopsis thaliana with 10 samples.

Results

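Of 964 loci whose RNA moved at least 2-fold with brassinolide in seedlings of the Arabidopsis thaliana line RiD, 23 showed little difference between rapamycin and mock in the same line. These 23 loci are described here, 13 that were higher with brassinolide and 10 that were lower. RiD is the line RiD-BRI1/BAK1, named after BRI1, the receptor of brassinosteroid hormones, and BAK1, the kinase that pairs with it. The 10 RNA-seq libraries came from whole seedlings in 5 groups of 2. These were RiD with 100 nM brassinolide, RiD with 100 nM rapamycin, RiD mock, wild-type Col-0 with 100 nM rapamycin, and Col-0 mock. All seedlings, the mock groups included, spent 5 days in darkness on 2 µM of an agent that the labels give as PPZ. The sources used here do not give the promoter behind the RiD line, the tissue in which it acts or how many independent lines it stands for. In whole seedlings fewer cells of a type and less RNA per cell cannot be told apart.

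Brassinolide is the most active of the brassinosteroids, plant steroid hormones that promote cell expansion, vascular development and growth in the dark. It binds the extracellular part of BRI1, BAK1 then joins the complex, and the kinase cascade that follows releases transcription factors of the BZR1 family, which lower the genes of hormone synthesis and adjust many genes of growth and the cell wall. Rapamycin is a bacterial macrolide that binds an FKBP protein and an FRB domain at once, and is used to bring proteins that carry these domains into contact. By the title and design of the study, the question was whether a chemical could switch on a plant membrane receptor. The loci below are those that brassinolide moved at least 2-fold in RiD while rapamycin values stayed near mock. They are not the only loci where the hormone and the chemical gave different values, as the synthesis genes given further down show.

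Values are the authors' normalized counts, summed over the transcripts of a locus, and differences are taken on the scale log2(value + 1). The members were chosen by these RiD values. A locus was taken when it averaged at least 50 normalized counts in RiD mock or in RiD brassinolide, when brassinolide minus mock was at least 1 (2-fold) in the same direction in libraries 1 and in libraries 2, and when rapamycin minus mock, averaged over both, lay between -0.4 and 0.4. The table held 32753 loci, of which 17267 reached that level. Brassinolide moved 720 of these up and 244 down in both pairs of libraries. The 13 higher loci were 1.81% of the 720, and the 10 lower loci 4.10% of the 244. Among all 17267 loci 50.9% lay inside the rapamycin window. The RiD values are therefore given as a description, without a test, while the 4 Col-0 libraries played no part in the choice.

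**Figure D1:**
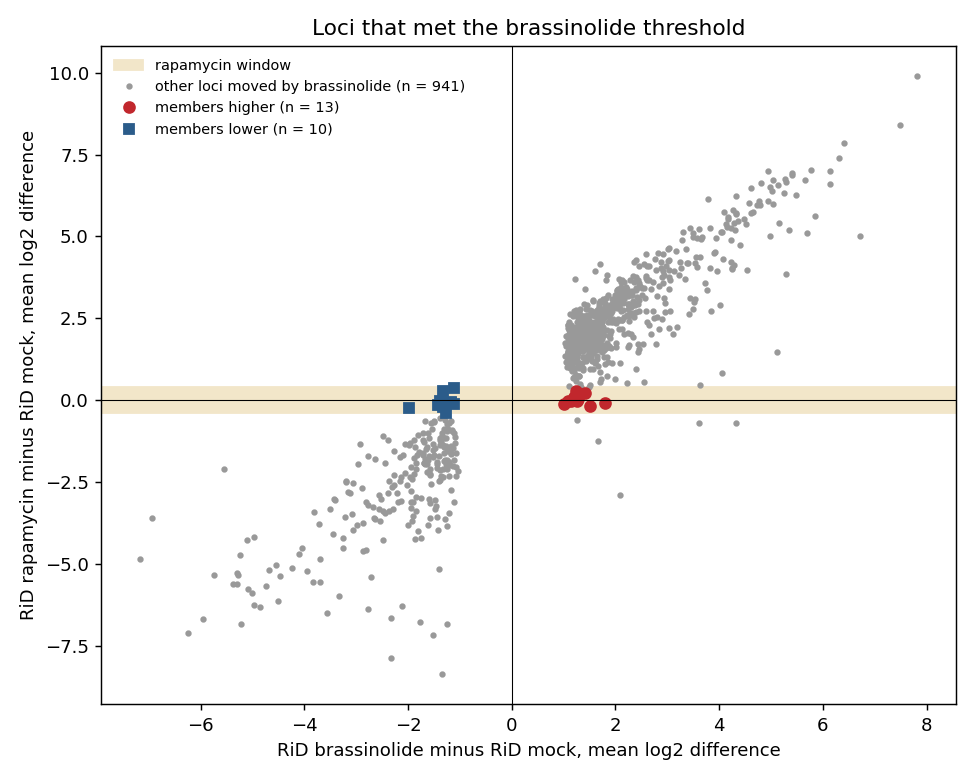
Each point is 1 of the 964 loci that met the brassinolide threshold, with the mean log2 difference of RiD brassinolide minus RiD mock across and that of RiD rapamycin minus RiD mock up. The band marks the rapamycin window of -0.4 to 0.4, and the 23 chosen loci lie inside it, 13 to the right and 10 to the left.

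The differences of the chosen loci were moderate. The 13 higher loci were between 2.02-fold and 3.47-fold above RiD mock with brassinolide, with a median log2 difference of 1.25. The 10 lower loci were 2.16-fold to 3.93-fold below RiD mock, with a median of -1.29. The rapamycin difference ran from -0.17 to 0.30 in the higher and from -0.39 to 0.39 in the lower loci. It lay inside the window in each pair of libraries for 10 of the 13 and 7 of the 10. In the other 6 the mean lay inside while at least 1 pair did not. These were AT5G23910, AT1G68360 and AT1G49870 of the higher loci and SBP3, PPI2 and AT5G43040 of the lower. The thresholds also left loci with similar values on both sides. Among the higher loci IRX15, with pair differences of 1.01 and 1.49, stood just inside the 2-fold threshold, and the laccase gene LAC17 (AT5G60020), with 1.04 and 0.96 and a rapamycin difference of -0.13, just outside. AT5G23910 was the last inside the rapamycin window at 0.30, and PLE (AT5G51600), a microtubule-associated protein of dividing cells, was outside at 0.41. Among the lower loci GRF5 was just inside the 2-fold threshold at -1.02 in libraries 2, and AT1G73340, a cytochrome P450, just outside at -0.98 in libraries 1. PPI2 closed the window at -0.39, and AT5G26260, a TRAF-like protein, lay beyond it at -0.55.

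The higher loci named for a cell wall or phenylpropanoid role were EXPB3, IRX15, PAL4 and DCF. EXPB3 (AT4G28250), a beta-expansin of the protein family that loosens cell walls, had 186 and 208 normalized counts in the RiD brassinolide libraries, against 59.8 and 46.6 in RiD rapamycin and 61.9 and 50.4 in RiD mock, and 65.9 and 62.4 in Col-0 rapamycin and 67.6 and 74.0 in Col-0 mock. Both brassinolide values stood far above the others, which ran from 46.6 to 74.0, and the pair differences were 1.57 and 2.02 for brassinolide against -0.05 and -0.11 for rapamycin. This was the largest difference of the 13, 3.47-fold. IRX15 (AT3G50220), a DUF579 protein needed for normal xylan in secondary walls, had 71.1 and 62.5 normalized counts in the RiD brassinolide libraries, against 32.0 and 22.9 in RiD rapamycin and 34.8 and 21.6 in RiD mock, and 26.9 and 20.3 in Col-0 rapamycin and 40.1 and 38.1 in Col-0 mock. Both brassinolide values were above the other 8, and both Col-0 rapamycin values were below both Col-0 mock values.

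PAL4 (AT3G10340), one of the phenylalanine ammonia-lyases that open the phenylpropanoid pathway, had 556 and 492 normalized counts in the RiD brassinolide libraries, against 251 and 259 in RiD rapamycin and 241 and 197 in RiD mock, and 157 and 126 in Col-0 rapamycin and 226 and 225 in Col-0 mock. The brassinolide libraries stood above all others, the 2 lines under mock overlapped, and the Col-0 rapamycin libraries were the lowest of the 10. DCF (AT3G48720), an acyltransferase that feruloylates cutin monomers, the polyester of the plant surface, had 264 and 324 normalized counts in the RiD brassinolide libraries, against 109 and 164 in RiD rapamycin and 117 and 158 in RiD mock, and 164 and 158 in Col-0 rapamycin and 179.8 and 172 in Col-0 mock. Here the Col-0 libraries, all between 158 and 180, lay within or just above the RiD rapamycin and RiD mock values, and the brassinolide libraries stood clear of them.

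PSK2 and ABCG22 act in signalling and transport. PSK2 (AT2G22860) encodes a precursor of phytosulfokine, a sulfated peptide that promotes cell growth, and had 976 and 620.4 normalized counts in the RiD brassinolide libraries, against 404 and 280.1 in RiD rapamycin and 359 and 235 in RiD mock, and 402 and 309 in Col-0 rapamycin and 351 and 256 in Col-0 mock. Libraries numbered 1 read higher than those numbered 2 in every group, and the brassinolide pair differences of 1.44 and 1.40 were nearly equal. ABCG22 (AT5G06530), an ABC transporter that limits water loss through stomata, had 463 and 673 normalized counts in the RiD brassinolide libraries, against 238 and 278 in RiD rapamycin and 228 and 333 in RiD mock, and 209 and 159 in Col-0 rapamycin and 176 and 235 in Col-0 mock. The RiD mock and RiD rapamycin values overlapped, and the higher brassinolide value was in library 2, as was the higher RiD mock value.

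A zinc finger protein, a kinesin-domain protein and a protein similar to a myosin heavy chain were among the higher loci with the lowest mock values. AT1G68360, a C2H2-type zinc finger protein, had 80.3 and 97.9 normalized counts in the RiD brassinolide libraries, against 26.4 and 27.5 in RiD rapamycin and 38.7 and 23.9 in RiD mock, and 44.3 and 43.3 in Col-0 rapamycin and 35.6 and 28.6 in Col-0 mock. AT5G23910, the kinesin-domain protein, had 138 and 117 normalized counts in the RiD brassinolide libraries, against 48.7 and 88.0 in RiD rapamycin and 54.2 and 52.0 in RiD mock, and 36.3 and 43.6 in Col-0 rapamycin and 48.5 and 60.1 in Col-0 mock. Both brassinolide libraries stood above the other 8 in each, although rapamycin library 2 of AT5G23910 lay 0.75 above its mock on the log2 scale while library 1 lay at -0.15. AT1G49870, the myosin-like protein, had 54.0 and 68.1 normalized counts in the RiD brassinolide libraries, against 26.4 and 23.7 in RiD rapamycin and 18.1 and 32.8 in RiD mock, and 16.1 and 28.4 in Col-0 rapamycin and 31.1 and 36.6 in Col-0 mock. Its value stood wholly on the first of 2 annotated transcripts in 9 libraries and wholly on the second in brassinolide library 2, so that the sum over the locus met the threshold and neither transcript alone did.

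The other 4 higher loci have no well-known role. AT5G17160, annotated as rich in aspartic and glutamic acid, had 322 and 281 normalized counts in the RiD brassinolide libraries, against 122 and 168 in RiD rapamycin and 111 and 137 in RiD mock, and 98.2 and 115 in Col-0 rapamycin and 115 and 128 in Col-0 mock. AT3G02640, a protein without annotated function, had 398 and 271 normalized counts in the RiD brassinolide libraries, against 218 and 107 in RiD rapamycin and 177 and 116 in RiD mock, and 173 and 106 in Col-0 rapamycin and 201 and 141 in Col-0 mock. The brassinolide values of both lay above their other 8 libraries, and rapamycin library 1 of AT3G02640 was its next highest value. AT4G29110, related to cotton fibre proteins, had 245 and 191 normalized counts in the RiD brassinolide libraries, against 90.4 and 98.6 in RiD rapamycin and 90.3 and 92.7 in RiD mock, and 134 and 115 in Col-0 rapamycin and 116 and 112 in Col-0 mock. AT5G66230, annotated to the chalcone-flavanone isomerase family, had 225 and 169.9 normalized counts in the RiD brassinolide libraries, against 96.0 and 78.8 in RiD rapamycin and 96.8 and 79.2 in RiD mock, and 130.4 and 92.1 in Col-0 rapamycin and 110.2 and 106 in Col-0 mock. In these last 2 loci rapamycin and mock values of the same number differed by at most 0.09 on the log2 scale, and RiD mock was below all 4 Col-0 libraries in AT4G29110.

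**Figure D2:**
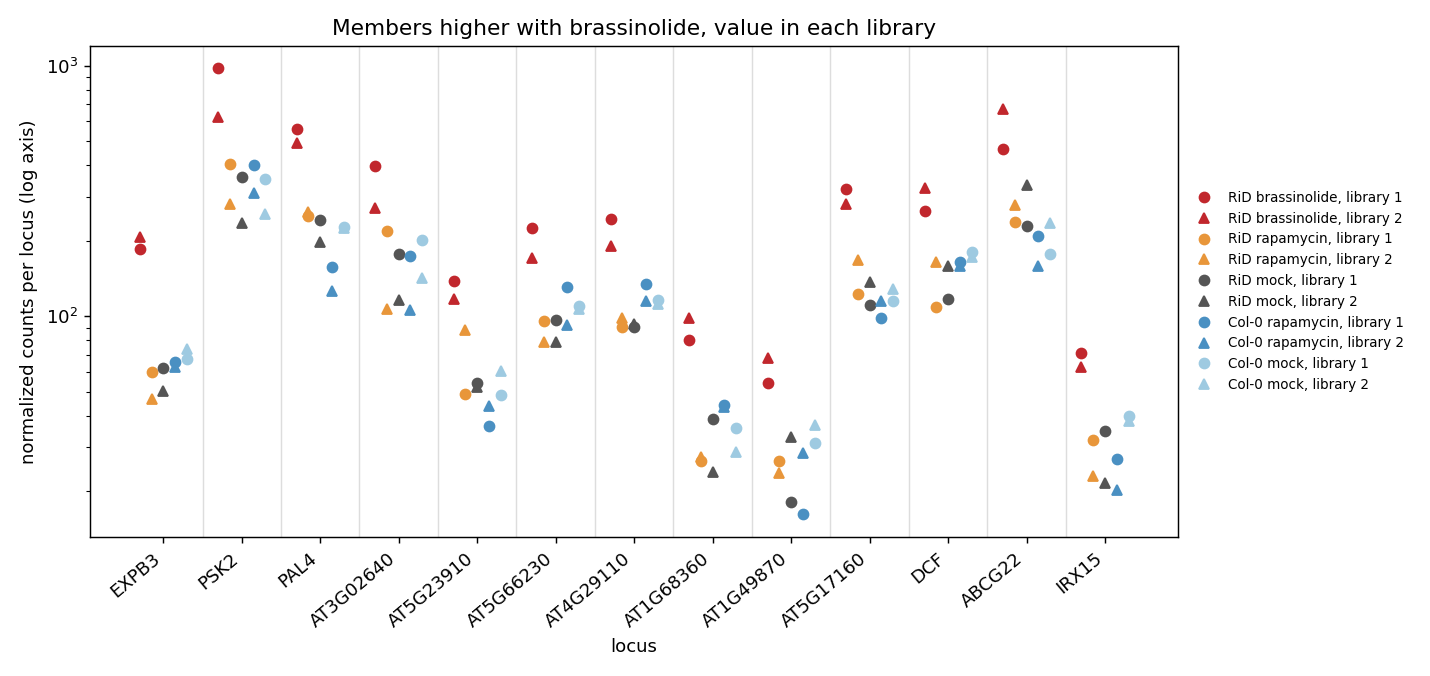
Normalized counts per locus, on a log axis, of the 13 loci higher with brassinolide, with the groups from left to right as RiD brassinolide, RiD rapamycin, RiD mock, Col-0 rapamycin and Col-0 mock (circle library 1, triangle library 2). In all 13 loci both brassinolide points stand above the other 8.

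In all 13 higher loci both brassinolide libraries lay above all 8 others, an order seen in 1.84% of the 17267 loci at this level. The RiD part of that order comes from the choice of loci, so nothing is read from the difference between these shares. RiD rapamycin and RiD mock overlapped in 12 of the 13. RiD mock overlapped the range of the Col-0 libraries in 11, and lay below it in the other 2. The rapamycin window favours the overlap of RiD rapamycin with RiD mock. No share over all loci was taken for either overlap, so nothing is read from these counts.

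Among the lower loci were a putative inhibitor of sugar or wall enzymes, a pectate lyase and a lipid enzyme. AT5G46960, of the invertase and pectin methylesterase inhibitor superfamily, had 28.9 and 16.2 normalized counts in the RiD brassinolide libraries, against 107 and 51.2 in RiD rapamycin and 116 and 66.9 in RiD mock, and 30.8 and 7.20 in Col-0 rapamycin and 154 and 64.5 in Col-0 mock. The brassinolide libraries were 3.93-fold below RiD mock, the largest difference of the 10, and the Col-0 rapamycin libraries were as low, at 30.8 and 7.20. AT4G13210, of the pectate lyases that cut pectin, had 48.8 and 60.2 normalized counts in the RiD brassinolide libraries, against 103 and 134 in RiD rapamycin and 124 and 123 in RiD mock, and 121 and 107 in Col-0 rapamycin and 124 and 158 in Col-0 mock. Its brassinolide values were the lowest of the 10 libraries, and the other 8 ran from 103 to 158. AT3G23470, the lipid enzyme, annotated as a cyclopropane-fatty-acyl-phospholipid synthase, had 108 and 101 normalized counts in the RiD brassinolide libraries, against 248 and 265 in RiD rapamycin and 293 and 273 in RiD mock, and 179 and 142 in Col-0 rapamycin and 179 and 180.3 in Col-0 mock. The brassinolide values were again the lowest, and both RiD rapamycin and both RiD mock values lay above all 4 Col-0 values.

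AT1G29090, a cysteine proteinase of the papain type, had 534 and 505 normalized counts in the RiD brassinolide libraries, against 1129 and 969 in RiD rapamycin and 1159.6 and 1084 in RiD mock, and 477 and 315 in Col-0 rapamycin and 1066 and 854 in Col-0 mock. Its brassinolide libraries were 2.16-fold below RiD mock, while the Col-0 rapamycin libraries were lower still. SBP3 (AT3G23800), a selenium-binding protein, had 573 and 493 normalized counts in the RiD brassinolide libraries, against 1475 and 1759 in RiD rapamycin and 1476 and 1193 in RiD mock, and 1541 and 1467 in Col-0 rapamycin and 1370.0 and 1478 in Col-0 mock. The other 8 libraries lay between 1193 and 1759, so that the brassinolide libraries lay apart from the mock and rapamycin libraries of both lines. Rapamycin minus mock in RiD was -0.001 in libraries 1 and 0.56 in libraries 2 for SBP3.

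EXO70C2, PPI2 and GRF5 are regulators or parts of secretion. EXO70C2 (AT5G13990), a member of the EXO70 family of exocyst proteins, had 27.7 and 44.8 normalized counts in the RiD brassinolide libraries, against 52.9 and 116 in RiD rapamycin and 67.1 and 121 in RiD mock, and 105 and 154 in Col-0 rapamycin and 73.4 and 144 in Col-0 mock. PPI2 (AT3G15340), a proton pump interactor related to a protein that binds the plasma membrane H+-ATPase, had 15.8 and 26.3 normalized counts in the RiD brassinolide libraries, against 41.8 and 35.2 in RiD rapamycin and 38.7 and 65.6 in RiD mock, and 39.0 and 33.5 in Col-0 rapamycin and 47.2 and 51.3 in Col-0 mock. In both loci the brassinolide values were below the other 8, but PPI2 read 0.11 in libraries 1 and -0.88 in libraries 2 for rapamycin minus mock, and its value moved between its 2 annotated transcripts from library to library. GRF5 (AT3G13960), a growth-regulating factor that promotes leaf cell proliferation, had 18.4 and 72.6 normalized counts in the RiD brassinolide libraries, against 65.4 and 141 in RiD rapamycin and 64.5 and 148 in RiD mock, and 69.9 and 156 in Col-0 rapamycin and 60.0 and 130.5 in Col-0 mock. Libraries numbered 2 read over 2-fold above libraries numbered 1 in each group, and brassinolide library 2 lay above RiD mock library 1, so that the groups overlapped although each numbered pair differed by at least 2-fold.

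AT3G24210, an ankyrin repeat protein, had 23.7 and 39.4 normalized counts in the RiD brassinolide libraries, against 52.9 and 87.2 in RiD rapamycin and 52.9 and 92.9 in RiD mock, and 63.2 and 48.7 in Col-0 rapamycin and 21.1 and 60.1 in Col-0 mock. AT5G43040, a cysteine- and histidine-rich C1 domain protein, had 23.7 and 25.5 normalized counts in the RiD brassinolide libraries, against 66.8 and 76.5 in RiD rapamycin and 52.9 and 56.0 in RiD mock, and 28.2 and 25.4 in Col-0 rapamycin and 42.4 and 23.5 in Col-0 mock. In both the brassinolide libraries lay below RiD mock, and their values were within the range of Col-0 mock or overlapped it. Both RiD rapamycin values of AT5G43040 lay above both its RiD mock values, with pair differences of 0.33 and 0.44.

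**Figure D3:**
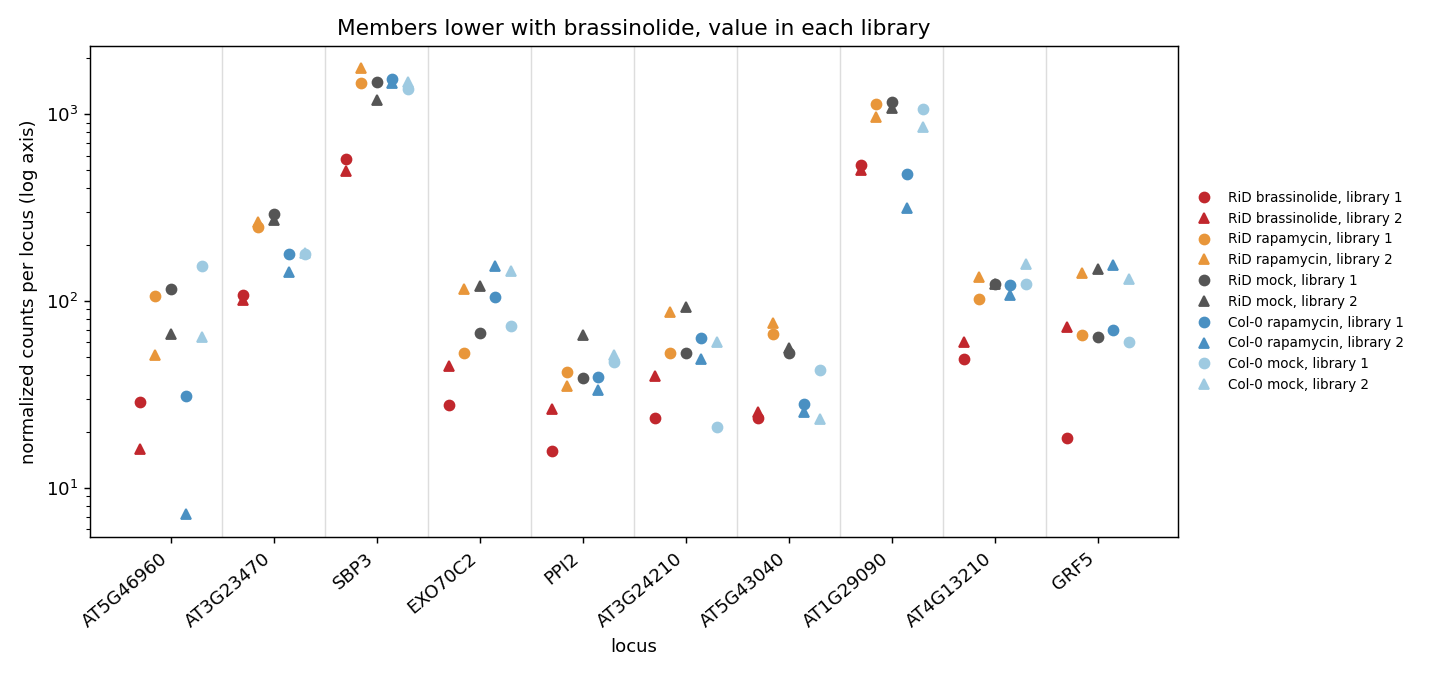
Normalized counts per locus, on a log axis, of the 10 loci lower with brassinolide, with groups and symbols as in the plot of the higher loci. Both brassinolide points lie below the other 8 in 5 loci (AT3G23470, SBP3, EXO70C2, PPI2 and AT4G13210), and in AT5G46960 and AT1G29090 the Col-0 rapamycin points are low as well.

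Both brassinolide libraries lay below all 8 others in 5 of the 10 lower loci, an order seen in 1.81% of the 17267 loci at this level. Here too the RiD part of the order was set by the choice. Both lay below both RiD mock libraries in 9 of the 10, with GRF5 the exception. RiD rapamycin and RiD mock overlapped in 8 of 10. RiD mock overlapped the Col-0 range in 7 loci and stood above it in 3. For these counts that involve RiD mock no share over all loci was taken, so nothing is read from them.

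How often the rule repeated between libraries was read by applying it in libraries of 1 number and reading the libraries of the other. This is no independent test of the members, because libraries of both numbers entered their choice. In libraries 1 alone 38 loci met the rule upwards. In libraries 2 brassinolide was again at least 2-fold above mock in 16 of them, 42.1% against 5.67% of all loci at this level, and rapamycin was again inside the window in 21, 55.3% against 49.2% of all loci. Both held in 10. Downwards, 31 loci met the rule in libraries 1, of which 11 were past 2-fold again in libraries 2, 35.5% against 1.83%, 22 were inside the window, 71.0% against 49.2%, and 7 met both parts. In the reverse reading 17 of 50 higher loci, 34.0% against 5.74%, and 7 of 15 lower loci, 46.7% against 2.62%, were past 2-fold in libraries 1, with 10 and 7 that met both parts. There the window held 22 of the 50 higher loci, 44.0%, and 13 of the 15 lower loci, 86.7%, against 51.5% of all loci. The brassinolide part was above the share of all loci in the 4 readings. That share includes loci that brassinolide did not move, so any locus responding to it would tend to exceed the share. Nothing is therefore read from this difference. The window part was above the share of all loci in 3 readings and below it in the higher loci chosen in libraries 2. The same RiD libraries chose the members, so nothing is read from the window part either. Most loci chosen in 1 pair did not meet the whole rule in the other.

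The Col-0 libraries gave the only comparison that the choice did not touch, and in it the members ran lower with rapamycin more often than higher. Both Col-0 rapamycin libraries lay below both Col-0 mock libraries in 10 of the 23 members, 43.5%, of which 6 were higher and 4 lower with brassinolide. The same order held in 9.99% of the 17244 other loci at this level and in 18.9% of the 941 other loci moved by brassinolide. Both lay above in 1 member, AT1G68360, against 8.36% of the 17244 and 9.78% of the 941. The median log2 difference was -0.17 over the members, -0.04 over the 941 and -0.004 over all loci.

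By limma over 23285 loci none was called in Col-0 at an adjusted p under 0.05 (percent called 0), and 557 loci, 2.39%, had an unadjusted p under 0.05, 1.52% of all loci being lower by that count. Members made up 3 of these: AT1G29090 at -1.30 (SE 0.22, unadjusted p = 0.000318, adjusted p = 0.802), AT5G46960 at -2.64 (SE 0.72, unadjusted p = 0.00608, adjusted p = 1) and PAL4 at -0.68 (SE 0.18, unadjusted p = 0.00529, adjusted p = 1). An exact permutation test of 2 libraries against 2 cannot go below 0.3333. In a fit with the library number as a block limma called 43 loci, 0.185%, and among them 2 members, AT5G46960 (adjusted p = 0.00135) and AT1G29090 (adjusted p = 0.000174), both lower, while PAL4 had an adjusted p of 0.084. At an unadjusted p under 0.05 that fit held 7.55% of all loci and 4 of the 23 members.

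**Figure D4:**
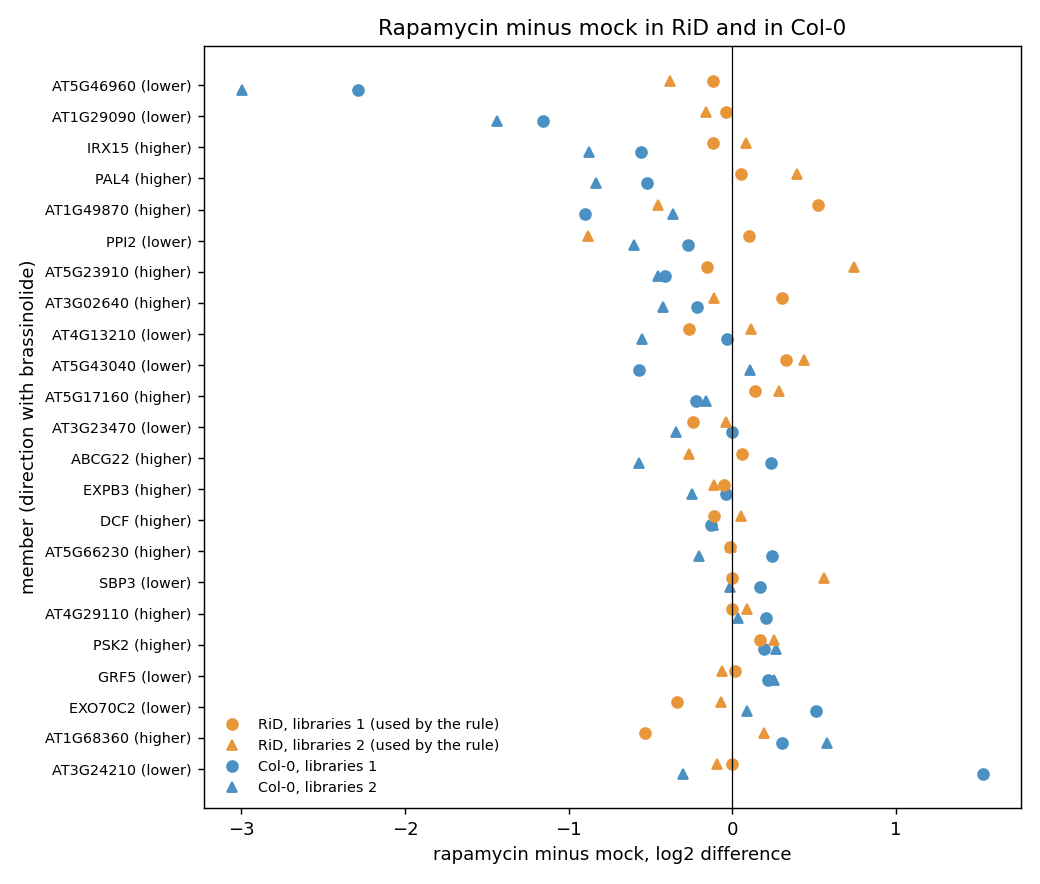
Log2 difference of rapamycin minus mock for each of the 23 members, by library number, in RiD (orange, used by the rule) and in Col-0 (blue). The Col-0 points of AT5G46960 and AT1G29090 lie beyond -1 while their RiD points lie between -0.38 and -0.04.

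The summed level of markers of xylem and secondary walls was highest with brassinolide and lowest in Col-0 rapamycin. The list held 10 genes, among them the secondary wall cellulose synthases, the proteases XCP1 and XCP2 and the lignin laccases LAC4 and LAC17, and each was detected. The summed level was 3599.9 and 5177 normalized counts in the RiD brassinolide libraries, against 2763 and 2805 in RiD rapamycin and 2611 and 3248 in RiD mock, and 1951 and 1659 in Col-0 rapamycin against 3061 and 3452 in Col-0 mock. Among the members PAL4 and the kinesin-domain locus AT5G23910 had the same order, with both brassinolide libraries highest and both Col-0 rapamycin libraries lowest of the 10. IRX15, the member with a secondary wall role, did not. Its RiD mock library 2 (21.6) and RiD rapamycin library 2 (22.9) lay below Col-0 rapamycin library 1 (26.9). None of the 10 genes was called by limma in RiD or in Col-0, while 3 had an unadjusted p under 0.05 with brassinolide, where 19.97% of all loci did, 1 with rapamycin in RiD, where 35.0% did, and 5 in Col-0, where 2.39% did, the lowest there being 0.0017 for XCP1 at -1.01. The list's medians were 0.36 for brassinolide and -0.11 for rapamycin in RiD and -0.84 for rapamycin in Col-0, beside -0.02, -0.03 and -0.001 over all loci tested. With the block 4 of the 10 were called higher with brassinolide (14.8% of all loci), 1 lower with rapamycin in RiD (24.1%) and 3 lower in Col-0, where 0.185% of all loci were called. The part of this in the members' values was not tested.

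None of the 23 members was on the 28 lists of hormone, stress, metabolic and cell type genes, so the genes of the pathway itself are given for comparison. Of 10 genes of brassinosteroid synthesis, which the hormone lowers by feedback, limma called 4 lower with brassinolide in RiD, where 6.76% of 23285 loci were called and 2.13% were called lower, and 6 lower with rapamycin, where 9.72% were. DWF4 (AT3G50660), a hydroxylase of the pathway, was at -1.25 with brassinolide (SE 0.16, adjusted p = 0.0036) and at -6.84 with rapamycin. BR6OX2 (AT3G30180), the oxidase that forms brassinolide, was at -1.34 and -8.37. The brassinolide count was 1 without RiD brassinolide 1 and 2 without RiD mock 2, where BR6OX2 was not called (adjusted p = 0.0819 and 0.0616), and 7 with the block. Of 14 alpha-expansins, relatives of EXPB3, 2 were called higher and 3 lower with brassinolide, and 3 higher and 5 lower with rapamycin. The lower ones became 6 with brassinolide and 10 with rapamycin under the block, and 10 with rapamycin at equal totals. EXPA8 (AT2G40610) was at 1.70 with brassinolide and 1.75 with rapamycin, and EXPA7 (AT1G12560) at -5.18 and -4.14. The comparisons with brassinolide and with rapamycin share the RiD mock libraries.

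Other lists lay near the annotated roles of single members, and their counts stand against the shares of all loci called by limma, 4.63% higher and 2.13% lower with brassinolide and 12.3% higher and 9.72% lower with rapamycin. In flavonoid and anthocyanin synthesis none of 9 genes was called by limma with brassinolide, 1 of them having an unadjusted p under 0.05 (19.97% of all loci), and FLS1, a flavonol synthase, was called lower with rapamycin, at -1.59 (adjusted p = 0.0441), a call lost in 8 of the 10 fits that left out 1 library (adjusted p up to 0.209). Of 8 stomatal lineage markers the patterning receptor gene TMM was called, at 1.83 with brassinolide and 1.73 with rapamycin. Of 10 endodermis and suberin markers 6 were called higher with brassinolide and 8 with rapamycin, among them GPAT5 (AT3G11430), a suberin acyltransferase, at 4.77 and 6.09. With the block 14.8% of all loci were called higher with brassinolide, and 24.1% in each direction with rapamycin. In the flavonoid list that fit called 1 gene higher with brassinolide and 4 lower with rapamycin. It called 2 stomatal markers higher with each agent and 1 lower with rapamycin. Of the endodermis and suberin markers it called 8 higher with each agent.

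The closest relatives of the members, taken as the best protein match that the reference annotation names, were known for 22 of 23 members, and 20 could be tested. They were looked up after the members were known, and 3 of the 20 were called with brassinolide, 2 higher and 1 lower, where limma called 4.63% and 2.13% of all loci. With rapamycin 3 were called higher and 3 lower, where 12.3% and 9.72% of all loci were. With the block the counts were 6 higher and 3 lower for brassinolide, where 14.8% and 12.8% of all loci were, and 8 higher and 5 lower for rapamycin, where 24.1% were in each direction. FACT (AT5G63560), a fatty alcohol caffeoyl-transferase and the best match of DCF, had 54.0 and 44.0 normalized counts in the RiD brassinolide libraries, against 71.0 and 82.6 in RiD rapamycin and 6.45 and 9.60 in RiD mock, and 18.8 and 5.81 in Col-0 rapamycin and 8.75 and 5.86 in Col-0 mock. It was at 2.49 with brassinolide (SE 0.51, adjusted p = 0.0251) and at 3.13 with rapamycin (adjusted p = 0.00357), while DCF had a rapamycin value of -0.03. The brassinolide call of FACT was lost without RiD brassinolide 1 or 2 (adjusted p = 0.171 and 0.088) and without RiD mock 1 or 2 (adjusted p = 0.138 and 0.0738). AT5G16250, the best match of AT3G02640, had 908 and 648 normalized counts in the RiD brassinolide libraries, against 535 and 341 in RiD rapamycin and 298 and 186 in RiD mock. It was called with brassinolide at 1.70 (adjusted p = 0.0164) and had 0.86 with rapamycin (adjusted p = 0.0882). By limma with the block AT5G16250 was called higher with rapamycin as well (adjusted p = 7.57e-05). The brassinolide call was lost without RiD brassinolide 1 (adjusted p = 0.139) and without RiD mock 2 (adjusted p = 0.0935).

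For other pairs the relative was called with rapamycin. ZFP6 (AT1G67030), a zinc finger protein and the best match of AT1G68360, had 304 and 252 normalized counts in the RiD brassinolide libraries, against 103 and 102 in RiD rapamycin and 315 and 278 in RiD mock. It was called lower with rapamycin at -1.52 (adjusted p = 0.00142) and stood at -0.09 with brassinolide. AT1G52140, the match of AT4G29110, was called lower with rapamycin at -0.93, AT5G43030, the neighbour and match of AT5G43040, higher at 0.998, and AT3G24670, a pectate lyase matched to AT4G13210, lower with both agents at -0.73 for brassinolide and -0.59 for rapamycin. AT5G36690, matched to PPI2, was called higher with rapamycin but was read only in the 2 RiD rapamycin libraries of the 10, at 4.18 and 2.30 normalized counts, about 3 reads. The calls of AT5G43030, AT3G24670 and AT5G36690 were lost without single libraries, with adjusted p up to 0.173, 0.194 and 0.111. PAL1 (AT2G37040), EXPB1 (AT2G20750), IRX15-L (AT5G67210), SBP1 (AT4G14030) and GRF2 (AT4G37740) were not called with either agent without the block. With it PAL1 and SBP1 were called higher with both agents, EXPB1 higher with brassinolide and GRF2 higher with rapamycin. IRX15-L was called with neither. AT2G34080, matched to AT1G29090, was at -1.03 with brassinolide and 0.36 with rapamycin. By limma with the block it was called lower with brassinolide (adjusted p = 0.00611). AT3G03130, matched to AT5G17160, was at 0.90 and -1.01, and both were called with the block (adjusted p = 0.0226 and 0.00659). Neither of these relatives was called without the block. PAL1 had 1476 and 1695 normalized counts in the RiD brassinolide libraries, against 1389 and 1616 in RiD rapamycin and 1147 and 1100.2 in RiD mock, and 806 and 791 in Col-0 rapamycin and 1211 and 1248 in Col-0 mock, with the Col-0 rapamycin libraries lowest, as in PAL4. In Col-0 PAL1 was lower with rapamycin by limma with the block (adjusted p = 0.0219) and not without it.

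**Figure D5:**
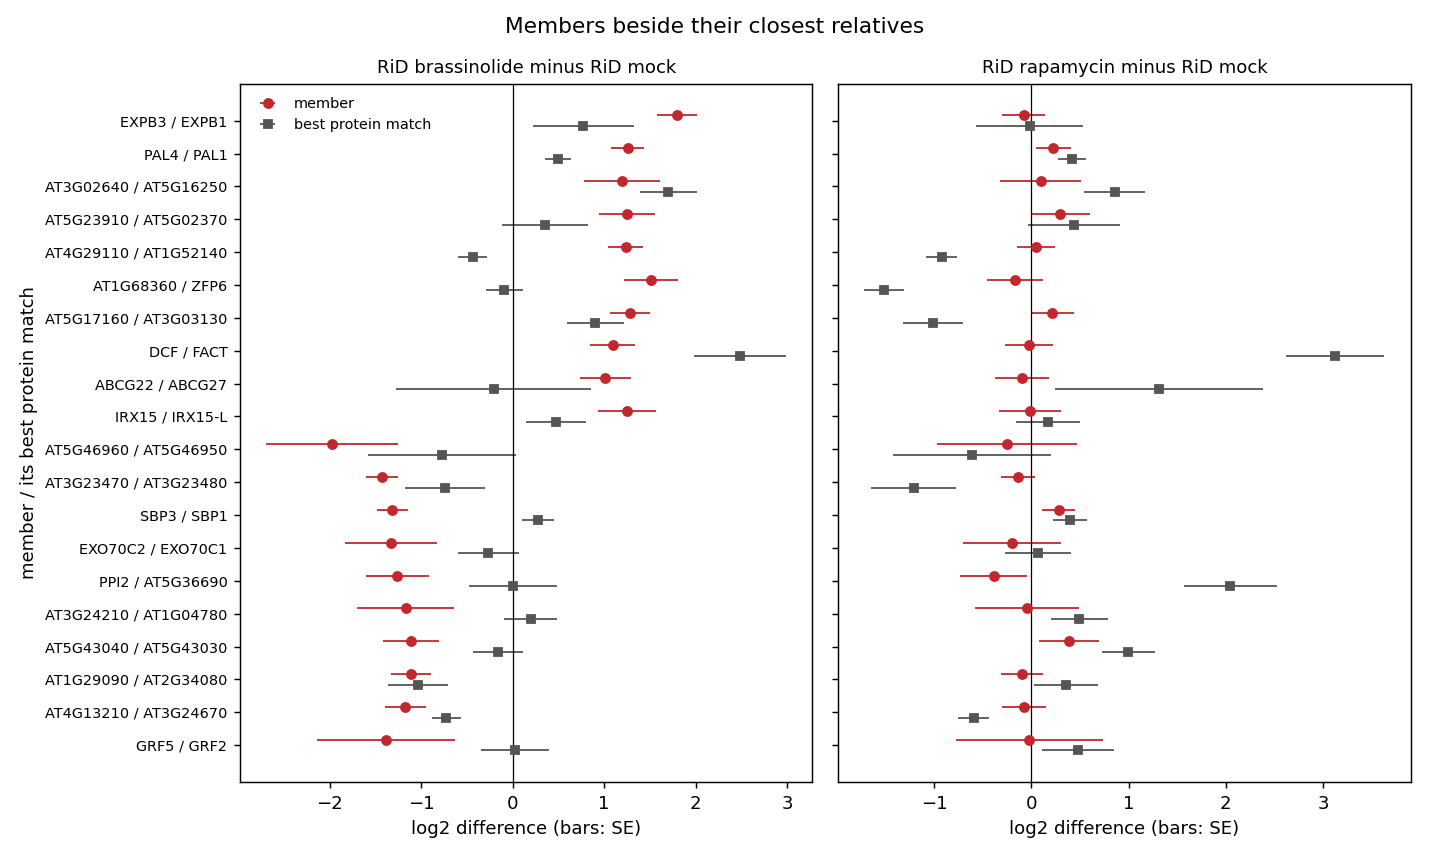
Log2 difference from RiD mock, with its SE from limma, of each member (red circle) and of its best protein match (grey square), for brassinolide on the left and rapamycin on the right, over the 20 pairs that could be tested. The members lie at or beyond 1 on the left and near 0 on the right because they were so chosen, while the matches were not chosen by their values.

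Position gave little in common. The members lay on all 5 chromosomes, 3, 1, 9, 3 and 7 of them on chromosomes 1 to 5, and no 2 members were neighbours. Around AT5G46960 the next protein-coding genes on both sides belong to the same inhibitor superfamily. AT5G46950 had 2.68 and 0 normalized counts in the Col-0 rapamycin libraries and 23.1 and 8.79 in the Col-0 mock libraries, and AT5G46940 had 0 and 0 normalized counts in the Col-0 rapamycin libraries and 8.92 and 6.57 in the Col-0 mock libraries. Both read lower in Col-0 rapamycin, as AT5G46960 did, and at low levels, since 3 reads correspond to 2.19 to 4.18 normalized counts. By limma AT5G46950 had an unadjusted p of 0.00583 there (adjusted p = 1), and with the block it was called lower (adjusted p = 0.0228). In RiD AT5G46940 had 0 and 0 normalized counts with brassinolide, 5.53 and 3.04 with rapamycin and 3.85 and 3.97 with mock, also at low levels. AT5G46950 had 13.1 and 3.84 with brassinolide, 11.1 and 6.10 with rapamycin and 18.0 and 9.55 with mock, values that overlapped. How the counting shared reads between such related copies is unknown here.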

How the data were processed

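Poly(A) RNA of whole seedlings was sequenced after a stranded TruSeq preparation, per the labels. The deposited signal values are the authors' normalized counts per transcript. The submitters' processing notes name Salmon and DESeq2. The sources used here do not give their versions, the genome build or the annotation. Values were summed over 40812 transcripts to 32753 loci with pandas 2.3.3. Gene names, products and gene order came from the TAIR10.1 reference, which lacked 705 loci.

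Depth, estimated from the value of 1 read, was 18.4 to 19.9 M reads in libraries 1 and 29.2 to 33.9 M in libraries 2. The labels do not say whether a group's libraries came from separate plantings, so a p-value covers only the spread among these libraries, which may be technical. Deviations from group means correlated at 0.32 to 0.51 between libraries of the same number in all 10 group pairs, and the number was tried as a block.

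The plan also allowed for raw counts. The values were not whole reads, so limma 3.58.1 was run on log2(value + 1), with a trend and robust moderation, over the 23285 loci that reached 1 normalized count in 2 or more libraries. Loci with a Benjamini-Hochberg adjusted p under 0.05 are called. On simulated data for Col-0 rapamycin against Col-0 mock, over 22452 loci, limma recovered 74% of loci changed 2-fold and 100% of those changed 4-fold, with 4.92% false calls. The changed loci had a Col-0 mock mean of at least 50 and were changed upwards only. Their spread was set, not estimated, and was independent between libraries, without the shared deviation by library number. These rates therefore need not hold for the real libraries, and the absence of Col-0 calls does not show that such changes were absent.

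The members and lists were chosen with earlier results of these data known. All members are named, with the loci next to each threshold and up to 4 called genes of a list by p. Alternatives were another pseudocount, other filters, thresholds and windows, equal totals, single transcripts, the block and each library left out.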

Additional observations from a re-analysis of the deposited data

Results flagged for a closer look

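In 3 members both RiD pairs had rapamycin minus mock differences of one sign and both Col-0 pairs the opposite sign. The flag was by sign alone, and no share over all loci was taken, so nothing is read from this count. AT5G46960 (mean -0.25 in RiD and -2.64 in Col-0) and AT1G29090 (-0.10 and -1.30) lay further apart between the lines with the same sign. No test of the difference between the lines is read here, because the choice of loci held the RiD values near 0.

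PAL4 (AT3G10340) had 0.05 and 0.40 in RiD and -0.52 and -0.83 in Col-0, and the mean in RiD minus that in Col-0 was 0.90. AT5G17160 had 0.14 and 0.29 in RiD and -0.22 and -0.16 in Col-0, a difference of 0.405. EXO70C2 (AT5G13990) had -0.34 and -0.07 in RiD and 0.51 and 0.09 in Col-0, a difference of -0.50.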

How the results depend on the processing

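The number of loci that met the rule depended on its settings. The 13 higher loci became 22 with a group mean of at least 20, 24 with a window of 0.6 and 22 with each transcript taken by itself. The 10 lower loci became 17 with a group mean of at least 20, 5 with one of at least 100, 5 with a window of 0.2 and 30 with each transcript by itself. With 1 pair of libraries alone they were 38 to 50 and 15 to 31. Scaling to equal totals, which moved the median rapamycin difference of all loci to -0.16, gave 17 higher loci, 11 of them among the 13, and 10 lower loci, 9 of them among the 10.

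With the library number as a replicate block limma called 6424 loci for brassinolide in RiD (1575 without), 11215 for rapamycin in RiD (5120 without), and 43 for rapamycin in Col-0 (0 without), 2 of the 43 being members. What the number stands for is not in the labels. Leaving out 1 library gave 473 to 1320 calls for brassinolide, of which 473 without RiD brassinolide 1, 884 without RiD brassinolide 2, 696 without RiD mock 1 and 744 without RiD mock 2. It gave 2945 to 4668 for rapamycin in RiD, with 3398 and 2945 without RiD rapamycin 1 and 2 and 3018 without RiD mock 1, and 0 to 1 in Col-0, with 0 members. With equal totals rapamycin in RiD gave 2473 higher and 3218 lower calls, against 2857 and 2263. The rule fixed the direction of each member's brassinolide difference, so nothing is read from its keeping that direction in other settings. In Col-0 a turn of direction was recorded only where limma called the locus, so turns in uncalled members were not counted. AT3G24210 had Col-0 pair differences of opposite sign, 1.54 and -0.30. Among the relatives, the rapamycin call of AT5G43030 was lost with equal totals and that of AT3G24670 without any of 6 single libraries. Depth limits loci near 50 normalized counts, since 3 reads correspond to 2.19 to 4.18 of them.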
